A study of Rattus norvegicus with 3 samples.

Results

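The Wnt ligands, their Frizzled receptors and the genes that inhibit or transmit their signal were followed in 3 male rats of the Sprague-Dawley strain, in tissue labelled motor cortex. All 3 had undergone cerebral ischemia and reperfusion, an interruption of the brain's blood supply and its return. The members were all rows whose gene symbol begins with Wnt, Fzd, Sfrp, Dkk, Rspo, Dvl or Axin and a digit, or with Tcf7, or reads Lrp5, Lrp6, Lef1 or Wif1. This gave 50 genes of 30957 listed, with the row of the highest mean taken for Dkk1, which stands on 2 rows. The animals carry the numbers 19, 35 and 70, form 1 group and share the label 8 weeks, whose meaning (age or time after the operation) the labels leave unstated. The sources used here do not say how the ischemia was produced, control animals were not analysed here, and the comparison is therefore between rats of the same group.

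Wnt proteins are secreted, lipid-modified ligands. They bind Frizzled receptors and, in the branch that stabilises beta-catenin, the co-receptors Lrp5 and Lrp6, after which Dishevelled (Dvl) proteins recruit Axin away from the complex that destroys beta-catenin, and beta-catenin then acts with Tcf/Lef factors in the nucleus. Secreted frizzled-related proteins (Sfrp) and Wif1 bind the ligands, Dickkopf (Dkk) proteins bind the co-receptors, and R-spondins (Rspo) protect Frizzled receptors from removal at the cell surface. In the brain, Wnt7a and Wnt7b from neural cells act on endothelial cells during growth of vessels and formation of their barrier, and other Wnt genes are expressed in meninges, glia and particular groups of neurons.

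Promoter sequences are shown for 6 members on which the results below turn. Each window runs from 250 bases before to 50 bases after the gene's start in RefSeq (rat build GRCr8), read on the gene's own strand, and capitals mark the Tcf/Lef core letters, which are CTTTGAA in its basic form and, with other ends, CTTTGAT as well as CTTTGTA along with CTTTGTT, searched on both strands. Axin2, a classical target of beta-catenin, is shown because its level stayed within 2-fold between rats, and Tcf7 because it is a Tcf/Lef gene whose level was more than 2-fold apart. Wnt3 and Wnt9b are neighbours on chromosome 10 that were high in the same rat, and Wnt4 and Wnt7a are ligands with opposite orders of the rats. The windows are chr10:94398535-94398834 (plus strand) for Axin2, chr10:36954230-36954529 (minus strand) for Tcf7, chr10:89179974-89180273 (plus strand) for Wnt3, chr10:89157016-89157315 (minus strand) for Wnt9b, chr5:154797200-154797499 (plus strand) for Wnt4 and chr4:125466100-125466399 (minus strand) for Wnt7a.
Axin2: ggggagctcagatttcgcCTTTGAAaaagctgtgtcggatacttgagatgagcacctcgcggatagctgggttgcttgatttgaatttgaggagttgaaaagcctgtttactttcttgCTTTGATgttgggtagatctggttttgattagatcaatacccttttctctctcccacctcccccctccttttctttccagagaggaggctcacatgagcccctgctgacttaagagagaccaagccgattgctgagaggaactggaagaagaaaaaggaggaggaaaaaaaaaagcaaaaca
Tcf7: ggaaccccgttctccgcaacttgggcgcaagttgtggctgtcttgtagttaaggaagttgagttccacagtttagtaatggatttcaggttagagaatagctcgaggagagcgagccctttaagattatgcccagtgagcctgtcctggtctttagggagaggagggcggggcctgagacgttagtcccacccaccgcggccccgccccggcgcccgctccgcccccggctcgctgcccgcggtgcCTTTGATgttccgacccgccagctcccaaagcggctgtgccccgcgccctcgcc
Wnt3: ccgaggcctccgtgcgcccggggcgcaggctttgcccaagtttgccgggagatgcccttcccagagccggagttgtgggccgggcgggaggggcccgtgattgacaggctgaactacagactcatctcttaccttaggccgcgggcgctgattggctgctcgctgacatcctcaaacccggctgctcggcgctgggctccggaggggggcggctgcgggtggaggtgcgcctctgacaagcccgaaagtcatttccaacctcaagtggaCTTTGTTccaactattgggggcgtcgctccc
Wnt9b: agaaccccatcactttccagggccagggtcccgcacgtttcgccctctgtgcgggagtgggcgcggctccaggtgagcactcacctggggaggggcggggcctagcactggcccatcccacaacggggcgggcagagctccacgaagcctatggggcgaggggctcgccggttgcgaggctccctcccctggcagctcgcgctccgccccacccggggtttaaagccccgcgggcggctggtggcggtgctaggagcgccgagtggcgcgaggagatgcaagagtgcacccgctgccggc
Wnt4: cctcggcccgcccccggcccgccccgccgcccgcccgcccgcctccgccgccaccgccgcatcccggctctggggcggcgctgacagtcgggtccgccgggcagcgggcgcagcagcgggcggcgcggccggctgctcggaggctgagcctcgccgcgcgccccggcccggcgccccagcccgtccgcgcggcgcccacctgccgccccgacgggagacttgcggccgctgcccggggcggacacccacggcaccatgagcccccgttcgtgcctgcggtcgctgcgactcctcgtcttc
Wnt7a: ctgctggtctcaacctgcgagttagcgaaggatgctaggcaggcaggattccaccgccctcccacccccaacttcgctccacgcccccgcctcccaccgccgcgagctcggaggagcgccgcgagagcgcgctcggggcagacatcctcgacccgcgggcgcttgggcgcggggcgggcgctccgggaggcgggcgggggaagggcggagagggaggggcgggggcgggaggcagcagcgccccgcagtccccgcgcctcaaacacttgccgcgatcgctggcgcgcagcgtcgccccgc
The windows of Axin2 (CTTTGAA 232 bases and CTTTGAT 132 bases before the start), Tcf7 (CTTTGAT 4 bases before the start) and Wnt3 (CTTTGTT beginning 20 bases into the transcript) hold such letters, and those of Wnt9b, Wnt4 and Wnt7a hold none. Of the 50 members, 35 had a window in RefSeq, and 7 of these (20%) held at least 1 of the 4 motifs, against 16.8% of 27457 rat promoters of the same length. The other matches were in Dkk1, Fzd7, Sfrp5 and Wnt8a. The member windows were rich in G and C, with a median GC content of 66.7% and 27 CG dinucleotides, against 52.3% and 7 over all windows. A match describes letters in this window and shows no binding. Dkk2, Dkk3, Dkk4, Fzd2, Fzd3, Fzd6, Lrp5, Lrp6, Rspo2, Rspo4, Sfrp1, Sfrp4, Wnt10b, Wnt5b and Wnt7b are named without a window.

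Levels are in FPKM, a fragment count scaled to gene length and library size, so that different genes can be compared, and they are given in the order rats 19, 35 and 70 with 1 library per rat. The libraries hold 15560000, 16460000 and 16050000 fragments as read from the steps between low values. The libraries stood apart from one another over all genes. The 10 neuronal markers summed to 1423, 64.9 and 1923 FPKM and all 10 were lowest in rat 35, as were all 9 markers of cortical projection neurons, among them Tbr1 at 14.0, 0.03 and 3.51. Markers of fibroblasts and meninges summed to 296, 2732 and 234 and all 8 that reached a mean of 1 FPKM were highest in rat 35, while Col1a2 of the same list was listed at 0 in every rat. Microglia and macrophage markers summed to 619, 1925 and 502, with 8 of 9 highest in rat 35. A list of 11 thalamic markers, chosen after values had been seen, summed to 83.2, 79.0 and 334, with 9 of the 10 that reached a mean of 1 FPKM highest in rat 70. This is 90%, beside 29.8% of all genes, but Slc17a6 and Lhx9 reached that mean only through rat 70. Each result below is therefore given by rat, and in bulk tissue fewer cells of a type and less RNA per cell cannot be told apart.

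A mean of 1 FPKM or more was reached by 35 of the 50 members. In 12 of these at least 1 rat was below 1 FPKM, and Wnt3 and Wnt9b passed only through rat 70. On the FPKM + 1 scale, 25 of the 35 (71.4%) were more than 2-fold apart between the highest and the lowest rat, where 42.5% of all 14134 genes with a mean of 1 FPKM were. The median member was 2.76-fold apart and the median gene 1.81-fold. This count depended on the libraries compared: without rat 35 it was 7 of 35, without rat 70 it was 14 and without rat 19 it was 22, beside 11%, 26.1% and 37% of all genes. At a mean of 5 FPKM or more, 9 of 16 members were over 2-fold apart, against 40.9% of genes. Counting error was smaller than most of these differences. The exact Poisson 95% intervals of the highest and the lowest rat were apart in 34 of the 35 members, the exception being Fzd5. The same count was not made over all genes, so it describes counting error and is not read as a trait of the members.

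The members shared no single order of the rats. Rat 35 was highest in 17 of the 35 (48.6%, against 45.4% of all genes) and lowest in 13 (37.1%, against 36.5%), shares near those of all genes. At a mean of 5 FPKM or more the shares were less near, at 62.5% and 25% of 16 members, against 45.3% and 36.8% of genes. Rat 70 was highest in 11 (31.4%, against 29.8%) and lowest in 11 (31.4%, against 44.2%), and rat 19 highest in 7 (20%, against 24.8%) and lowest in 11 (31.4%, against 19.3%). Rat 35 was more than 2-fold above both other rats in 7 members, 20% of the members beside 10.3% of all genes. These were Sfrp1, Wnt4, Fzd6, Lrp5, Wnt5b, Fzd7 and Rspo1. Rspo1, at 0.64 and 1.06 FPKM in rats 19 and 70, would not have reached a mean of 1 FPKM without rat 35. Nothing is therefore read from the size of this share. Rat 35 was more than 2-fold below both in 5 (Tcf7l2, Wnt7b, Wnt7a, Rspo3 and Wif1), 14.3% beside 11.9%. Rat 70 was more than 2-fold above both others in 6 (Fzd9, Wnt2, Rspo2, Sfrp2, Wnt3 and Wnt9b), 17.1% beside 3.81%. None of these 6 reached a mean of 5 FPKM, where the count was 0 of 16 beside 3.65% of genes. Wnt3, Wnt9b and Sfrp2 would not have reached a mean of 1 FPKM without rat 70, so this share is a description and nothing is read from its size. Rat 19 was more than 2-fold above or below both others in 0 of 35 members, where 1.27% and 0.389% of all genes were, and rat 70 was below both others in 0, where 3.86% were. No rat stood apart from both others in the remaining 7 of the 25 (Fzd2, Lrp6, Tcf7l1, Tcf7, Wnt16, Wnt9a and Wnt6).

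**Figure D1:**
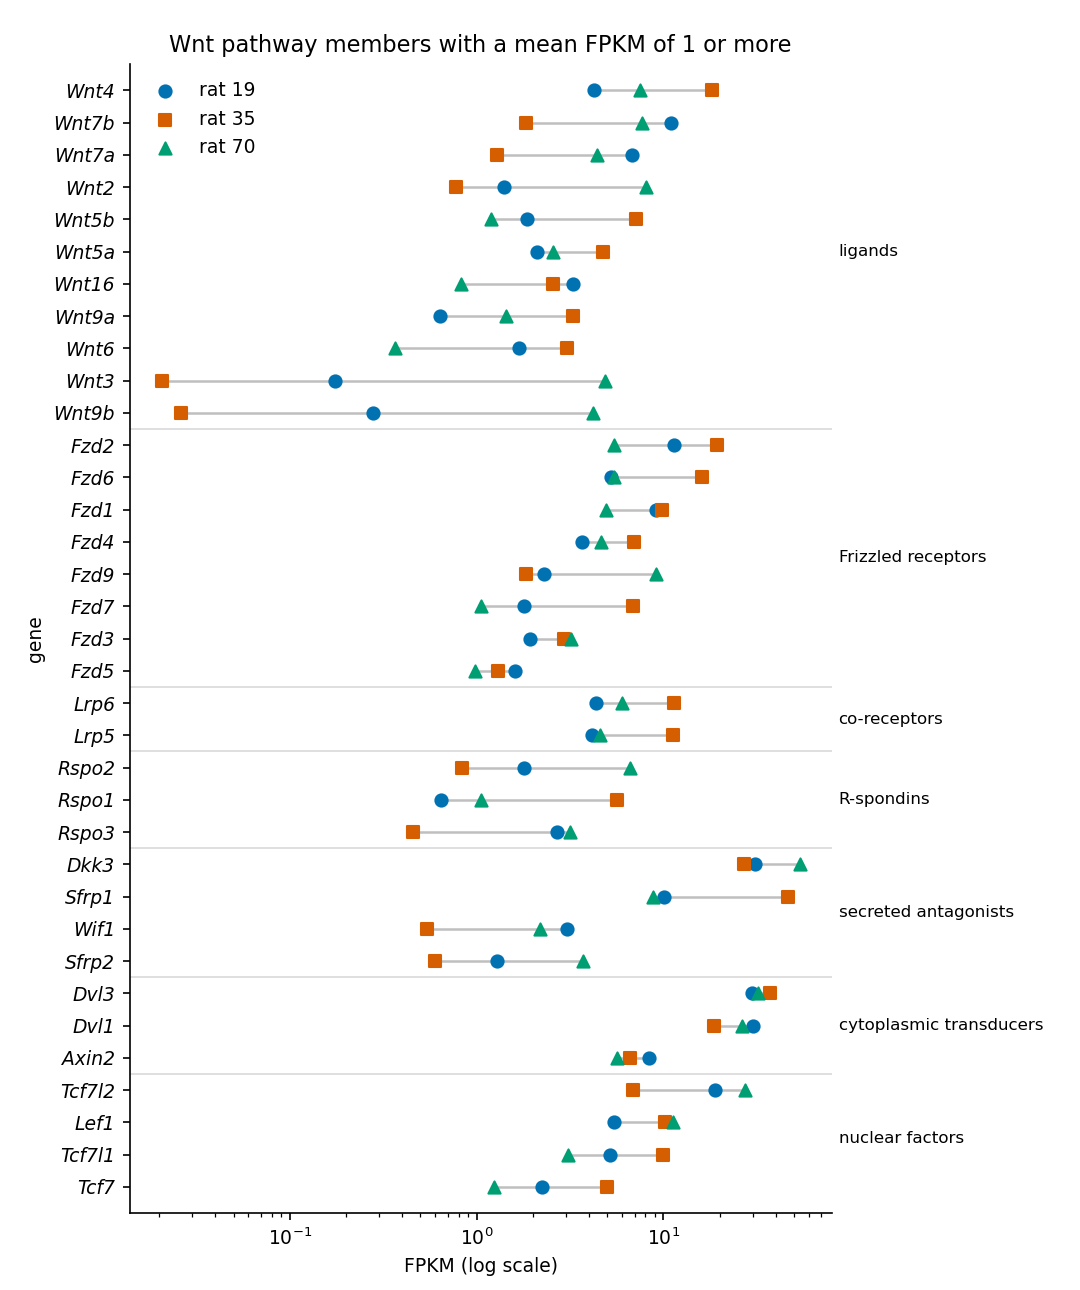
Level of each of the 35 members with a mean FPKM of 1 or more (rows, grouped by role) in each rat (points), on a log FPKM axis, with a grey line from the lowest to the highest rat. Wnt3 and Wnt9b have the longest lines, with rat 70 at 4.88 and 4.18, and Dvl3 among the shortest, between 29.7 and 37.1.

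Among the ligands, the summed level was similar in the rats while its make-up was not. All 19 Wnt genes together were at 35.6, 45.5 and 45.5 FPKM (42.2 ± 5.73, SD, n = 3), a 1.28-fold range. Yet 10 of the 11 ligands that reached a mean of 1 FPKM were over 2-fold apart (90.9%, beside 42.5% of all genes), the exception being Wnt5a. These 10 include Wnt3 and Wnt9b, which reached that mean only through rat 70. The most abundant ligand was Wnt7b in rat 19 (30.8% of the ligand sum), Wnt4 in rat 35 (39.9%) and Wnt2 in rat 70 (17.7%). Wnt7a and Wnt7b together made up 49.8%, 6.87% and 26.6% of the sum.

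**Figure D2:**
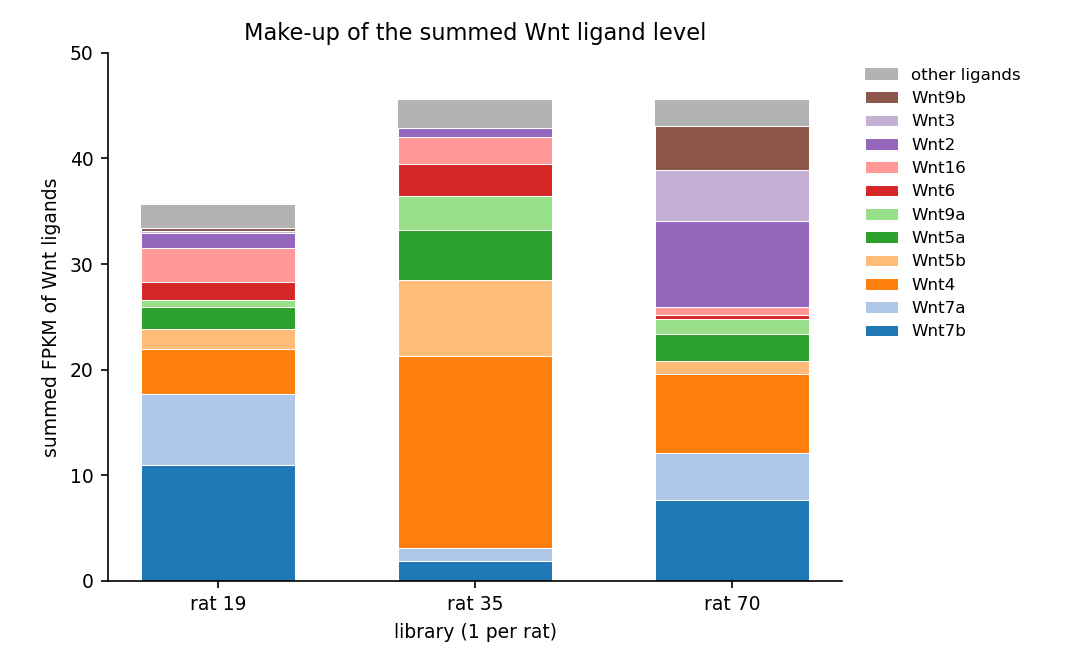
Summed FPKM of the 19 Wnt ligand genes in each rat (bars, 1 library each), divided by gene. Bar heights are 35.6, 45.5 and 45.5, with Wnt7a and Wnt7b large in rat 19, Wnt4 in rat 35, and Wnt2, Wnt3 and Wnt9b visible mainly in rat 70.

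Wnt7b (chromosome 7, 126420656 to 126465723, Rnor 6.0), one of the ligands that act on brain endothelium, was at 10.96, 1.84 and 7.70 FPKM (6.83 ± 4.62, SD, n = 3). Its relative Wnt7a (chromosome 4, 122994425 to 123040609) was at 6.77, 1.29 and 4.41 (4.16 ± 2.75). Both were lowest in rat 35, where they rest on at least 139 and 67 fragments, and rat 19 was 5.97-fold and 5.24-fold above it on the FPKM scale. The neuronal marker sum was lowest in the same rat and astrocyte markers summed to 3226, 1043 and 2192; the part of either in these values was not tested.

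Wnt4 (chromosome 5, 155649217 to 155672579), whose promoter window is among those above, was at 4.26, 18.2 and 7.48 FPKM (9.98 ± 7.29, SD, n = 3). Wnt5b, a ligand mostly studied for signalling that does not use beta-catenin, was at 1.85, 7.15 and 1.19, and its relative Wnt5a at 2.11, 4.72 and 2.56. Wnt9a was at 0.63, 3.29 and 1.43 and Wnt6 at 1.69, 3.04 and 0.36. These 5 ligands were highest in rat 35, the rat with the highest fibroblast and meningeal marker sum. Slc6a13, Aldh1a2 and Foxc1, which mark meningeal cells, were at 10.6, 16.5 and 5.31, at 25.1, 47.3 and 9.11 and at 8.17, 33.8 and 4.74; their part in the ligand values was not tested. Wnt16 had yet another order, 3.29, 2.56 and 0.82, lowest in rat 70.

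The ligands Wnt3, Wnt9b and Wnt2 were high in rat 70. Wnt3 (chromosome 10, 91830654 to 91874793) was at 0.17, 0.02 and 4.88 FPKM, which rests on 8, 1 and 231 fragments. Wnt9b (chromosome 10, 91785893 to 91807937) was at 0.28, 0.03 and 4.18, on 30, 3 and 464 fragments. Rat 70 was 28.0-fold above rat 19 in Wnt3, and for both genes the Poisson intervals of rat 70 lay above those of both other rats. Wnt2 (chromosome 4, 45292437 to 45332420) was at 1.40, 0.78 and 8.06, so that rat 70 was 5.75-fold above rat 19.

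Wnt3 and Wnt9b lie 22.7 kb apart on opposite strands and point away from each other, with no other listed gene between them. The family holds 3 further neighbouring pairs, in which the neighbours differed in order or were low. Wnt9a had 3.29 FPKM in rat 35, whereas Wnt3a, 21.1 kb away in the same divergent arrangement, was listed at 0 in rats 19 and 35 and at 0.02 in rat 70. Wnt6 spanned 0.36 to 3.04, while Wnt10a, 6.41 kb downstream on the same strand, was at 0.52, 0.54 and 0.56 with overlapping Poisson intervals. Wnt10b (0.86, 0 and 0.28) and Wnt1 (0.03, 0 and 0.03), 10.7 kb apart, were both under 1 FPKM.

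**Figure D3:**
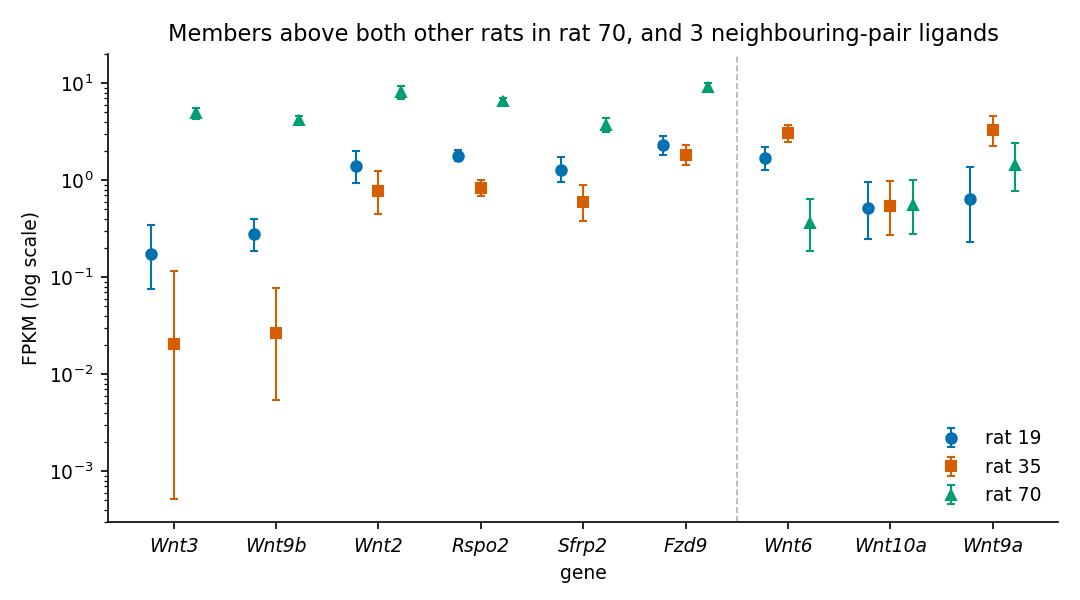
FPKM of 6 members that were over 2-fold above both other rats in rat 70 (left of the dashed line) and of 3 ligands from other neighbouring pairs (right), on a log axis; bars are exact Poisson 95% intervals of the fragments and cover counting error only. Rat 70 lies above both other rats for Wnt3 (4.88) and Wnt9b (4.18), whereas Wnt10a is between 0.52 and 0.56 in all rats.

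Most of the thalamic and hippocampal markers counted were highest in rat 70 as well. Slc17a6, the vesicular glutamate transporter gene of thalamic and other subcortical neurons, was at 1.73, 0.01 and 28.7 FPKM, Lhx9 was listed at 0 in rats 19 and 35 and at 5.90 in rat 70, and Prkcd was at 18.1, 42.7 and 153. Against this order, the thalamic gene Tnnt1 was at 3.83, 4.09 and 0.91. Of 7 hippocampal markers, also chosen after values had been seen, 3 of the 4 with a mean of 1 FPKM were highest in rat 70, with C1ql2 at 2.17, 0.18 and 28.7. This is 75%, beside 29.8% of all genes. The other, Wfs1, had the highest mean of the list and was highest in rat 19, at 56.4, 11.5 and 34.5. The list summed to 63.3, 14.0 and 77.5, so rats 19 and 70 differed little in the sum. Ttr, which is very abundant in choroid plexus, was at 33.1, 0.17 and 362. Of the other choroid plexus and ependymal markers, Clic6 had the same order at 0.84, 0.07 and 2.32, as had Tmem212 at 1.51, 0.49 and 1.64. Ccdc153 was at 3.78, 0.96 and 3.47, Folr1 at 1.57, 2.09 and 2.02 and Kl at 0.45, 0.63 and 0.63. The part of tissue from these regions in the Wnt3, Wnt9b and Wnt2 values was not tested.

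Of the 8 ligands below a mean of 1 FPKM, Wnt2b (0.29, 0.96 and 1.33) and Wnt11 (0.47, 1.13 and 0.19) differed between their highest and lowest rat by more than the Poisson intervals. Wnt2b overlaps the gene St7l on the other strand (9.39, 3.92 and 4.26), and the sources used here do not say whether the authors' counting used strand, so reads of the pair may be mixed. Wnt8a and Wnt8b were listed at 0 in every rat. A listing at 0 can be a failed estimate, because Hprt1, Rps6 and Rpl8, which every cell uses, were listed at 0 too.

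The Frizzled receptors, which bind Wnt ligands at the cell surface, summed to 37.1, 65.1 and 34.7 FPKM (45.6 ± 16.9, SD, n = 3), with rat 35 highest. Of 8 receptors with a mean of 1 FPKM, 4 were over 2-fold apart and 5 were highest in rat 35 (50% and 62.5%, beside 42.5% and 45.4% of all genes). Fzd2, the most abundant by its mean and in rats 19 and 35, was at 11.4, 19.4 and 5.44 (12.1 ± 6.98) and Fzd6 at 5.21, 16.1 and 5.41 (8.92 ± 6.25). Fzd7 was at 1.80, 6.83 and 1.06, and its promoter window holds CTTTGAA at the start site. All 3 were highest in rat 35, and in Fzd6 rats 19 and 70 had overlapping Poisson intervals.

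Fzd9 (chromosome 12, 24473981 to 24476295) was highest in rat 70 and lowest in rat 35, at 2.30, 1.84 and 9.10 FPKM (4.41 ± 4.06, SD, n = 3), so that rat 70 was 3.95-fold above rat 19. It was the most abundant Frizzled gene in rat 70, with 26.2% of the sum, where Fzd2 had 15.7%. Fzd4, the receptor for Norrin in brain and retinal endothelium, was at 3.65, 6.92 and 4.62. Fzd1 was at 9.17, 9.79 and 4.91 and Fzd3, a receptor required for axon tract formation, at 1.94, 2.92 and 3.20. These last 3 and Fzd5 (1.61, 1.299 and 0.98) were within 2-fold on the FPKM + 1 scale. Fzd8 was listed at 0 in every rat.

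The co-receptors shared their highest and lowest rat. Lrp5 was at 4.14, 11.3 and 4.56 FPKM (6.67 ± 4.02, SD, n = 3) and Lrp6 at 4.37, 11.4 and 6.0 (7.26 ± 3.68). Both were highest in rat 35, by 2.73-fold and 2.61-fold against rat 19.

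The R-spondins, which strengthen Wnt signals through Lgr receptors, had no common order. Rspo1 was at 0.64, 5.67 and 1.06 FPKM (2.46 ± 2.79, SD, n = 3) and was 8.84-fold higher in rat 35 than in rat 19. Rspo2 was at 1.79, 0.84 and 6.60 (3.08 ± 3.09), highest in rat 70. Rspo3 was at 2.70, 0.45 and 3.14 (2.10 ± 1.44), lowest in rat 35. Rspo4 was listed at 0 throughout. All 3 detected R-spondins were over 2-fold apart, where 42.5% of all genes were, in 3 different patterns. Each of the 3 was below 1 FPKM in at least 1 rat, and Rspo1 would not have reached a mean of 1 FPKM without rat 35.

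The secreted antagonists summed to 46.1, 76.6 and 69.1 FPKM (63.9 ± 15.9, SD, n = 3), and a different gene filled most of the sum in rat 35. Dkk3, a Dickkopf relative that does not act as a typical inhibitor of the co-receptors, made up 67.1%, 35.1% and 77.5% and was at 30.9, 26.9 and 53.6 (37.1 ± 14.4). Sfrp1 (chromosome 16, 73372007 to 73410777), which binds Wnt ligands outside the cell, made up 21.9%, 60.8% and 12.7% and was at 10.1, 46.5 and 8.77 (21.8 ± 21.4). Rat 35 was 4.62-fold above rat 19 in Sfrp1, with 2981 fragments against 610. Without Dkk3, the antagonists summed to 15.1, 49.7 and 15.5. With Dkk3 included, the antagonist sum over the Frizzled sum was 1.24, 1.18 and 1.99, highest in rat 70. The Frizzled sums were 37.1, 65.1 and 34.7, so without Dkk3 this ratio was highest in rat 35 instead.

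Sfrp2, a close relative of Sfrp1, had a different order, at 1.29, 0.60 and 3.72 FPKM (1.87 ± 1.64, SD, n = 3), highest in rat 70. Wif1, another ligand-binding inhibitor, was at 3.04, 0.54 and 2.20 (1.93 ± 1.27), lowest in rat 35. Dkk2, an inhibitor acting on Lrp5 and Lrp6, stayed low at 0.35, 1.02 and 0.60, as did Sfrp4 at 0.39, 0.28 and 0.25. Sfrp5 was at 0.70 in rat 35, on as few as 2 fragments, and listed at 0 in the others. Dkk1 and Dkk4 were listed at 0 in every rat.

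The cytoplasmic transducers differed least. Dvl3 was at 29.7, 37.1 and 32.2 FPKM (33.0 ± 3.75, SD, n = 3) and Dvl1 at 30.2, 18.7 and 26.3 (25.1 ± 5.84). Axin2, the beta-catenin target whose promoter window holds 2 Tcf/Lef cores, was at 8.41, 6.64 and 5.65 (6.90 ± 1.40), a 1.49-fold range. The 3 genes summed to 68.3, 62.4 and 64.2, and 0 of 3 were over 2-fold apart on the FPKM + 1 scale, where 42.5% of all genes were.

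The Tcf/Lef factors, which carry the beta-catenin signal to DNA, split by gene. Tcf7l2, a factor abundant in thalamic neurons and in differentiating oligodendrocytes, was at 19.0, 6.85 and 27.3 FPKM (17.7 ± 10.3, SD, n = 3). Tcf7 was at 2.24, 4.98 and 1.25 (2.82 ± 1.93) and Tcf7l1, which acts largely as a repressor, at 5.14, 9.94 and 3.07 (6.05 ± 3.52). Both had the reverse order of Tcf7l2, with rat 35 highest and rat 70 lowest. Lef1 was at 5.43, 10.2 and 11.2 (8.94 ± 3.08), with overlapping Poisson intervals in rats 35 and 70. Oligodendrocyte markers summed to 4031, 3305 and 5447, lowest and highest in the same rats as Tcf7l2, as were cortical projection neuron markers (395, 22.1 and 505); the part of either in the Tcf7l2 values was not tested.

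**Figure D4:**
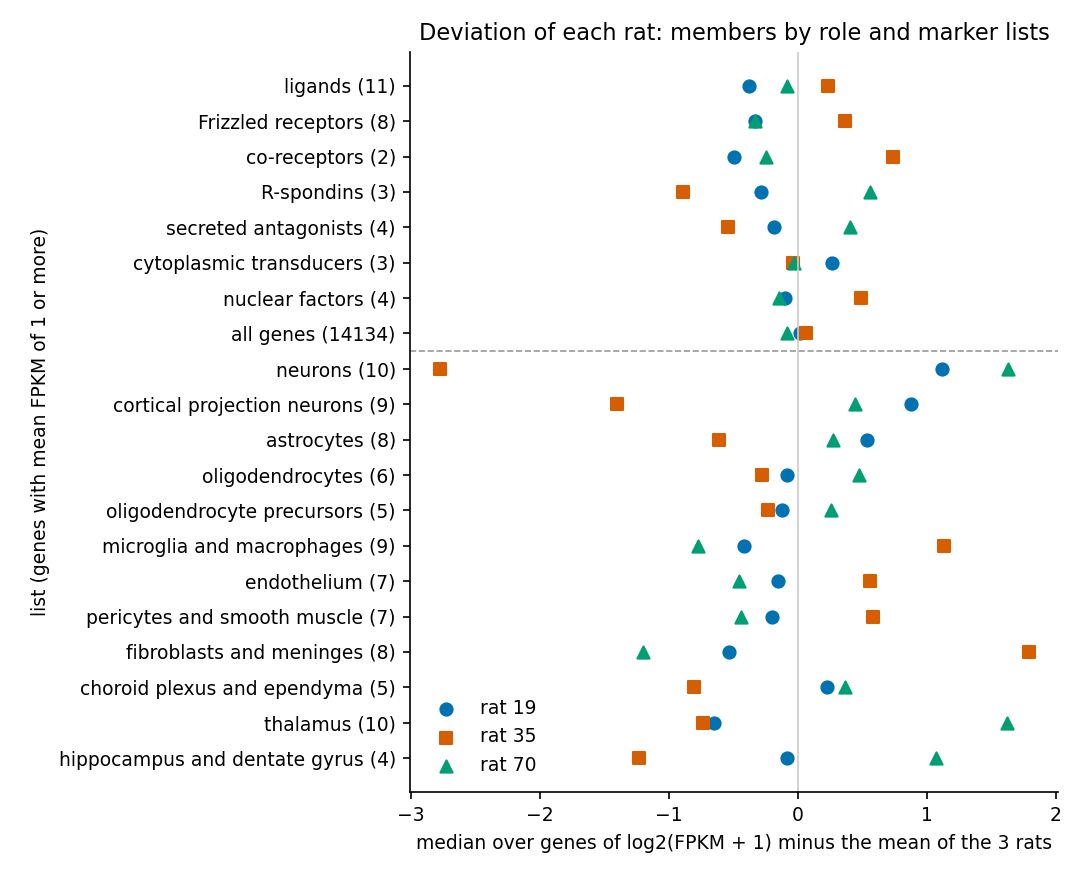
Median over the genes of each list of log2(FPKM + 1) in 1 rat minus the mean of the 3 rats; rows are the members by role (above the dashed line) and marker lists (below), with the number of genes that reached a mean of 1 FPKM, and points are rats. In rat 35 co-receptors were at 0.74 and R-spondins at -0.89, beside neurons at -2.77 and fibroblasts and meninges at 1.79.

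Other genes of the pathway, from lists by function, spread less than the members. Of 69 genes in 8 lists, 60 reached a mean of 1 FPKM and 29 (48.3%) were over 2-fold apart, against 42.5% of all genes. The count was 6 without rat 35, 15 without rat 70 and 23 without rat 19. These are 10%, 25% and 38.3% of the 60, near the 11%, 26.1% and 37% of all genes. At a mean of 5 FPKM or more the gap was smaller, with 45.8% of 48 pathway genes and 56.2% of 16 members over 2-fold apart. Among genes of ligand secretion, 2 of 6 were over 2-fold apart (33.3%, beside 42.5% of all genes). They were Porcn, which attaches the lipid to Wnt ligands (15.02, 7.46 and 20.5), and the sulfatase gene Sulf1 (8.70, 2.61 and 0.94). Wls, the carrier of Wnt proteins to the surface, was at 16.6, 28.6 and 18.9, and Sulf2 at 66.0, 126 and 88.9.

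Of other receptors and their regulators, 4 of 7 were over 2-fold apart (57.1%, beside 42.5% of all genes). Ror2, a receptor for Wnt5a, was at 2.43, 10.8 and 2.09 FPKM, and Ptk7, a Wnt co-receptor of the polarity branch, at 9.84, 37.3 and 10.5. Both were highest in rat 35, as was Ryk within 2-fold (18.5, 29.7 and 20.3). Among the receptor complexes of endothelium, 2 of 3 were over 2-fold apart (66.7%, beside the same 42.5%). Adgra2, the endothelial partner of Wnt7 signalling, was at 17.3, 59.8 and 14.7, whereas Tspan12, the partner of Fzd4, was at 28.3, 10.3 and 21.3. The endothelial marker sum was 190, 320 and 187 and that of pericytes and smooth muscle 198, 374 and 110, and Ndp, which encodes Norrin, was listed at 0 throughout; the part of vessels in the Adgra2 values was not tested.

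Of 4 other extracellular antagonists with a mean of 1 FPKM, 3 were over 2-fold apart (75%, beside 42.5% of all genes). Frzb, a relative of the Sfrp genes, was at 5.001, 20.5 and 6.62 FPKM, highest in rat 35 as Sfrp1 was. Sostdc1, also among the 3, was at 0.22, 0 and 2.93 and reached a mean of 1 FPKM only through rat 70. Nothing is therefore read from the size of this share. Apcdd1 was within 2-fold at 17.7, 25.0 and 13.4.

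Beta-catenin itself, Ctnnb1, was at 137, 240 and 144 FPKM (174 ± 57.7, SD, n = 3). Within its destruction complex, 5 of 11 genes were over 2-fold apart (45.5%, beside 42.5% of all genes). Among them were the scaffolds Apc (26.2, 9.13 and 28.7) and Apc2 (9.24, 3.23 and 15.02), both lowest in rat 35. The kinase gene Csnk1a1 was at 64.7, 77.0 and 67.1. Nuclear cofactors had 2 of 10 over 2-fold apart (20%, beside the same 42.5%). They were Tle2 (6.97, 2.64 and 3.44) and Tle3 (14.7, 31.4 and 16.9). The abundant Tle5, listed under its older symbol Aes, was at 332, 202 and 391, and Pygo2 at 24.7, 25.1 and 19.9.

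In the planar polarity branch 3 of 9 were over 2-fold apart (33.3%, beside 42.5% of all genes). Celsr3, a cadherin that guides axon tracts, was at 9.48, 0.55 and 10.6 FPKM and Celsr2 at 24.9, 4.24 and 35.5, the order of the neuronal markers. Prickle1 was at 23.0, 18.1 and 25.3 and Prickle2 at 20.6, 14.4 and 31.4.

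Of 10 genes often used as readouts of beta-catenin, 8 were over 2-fold apart and 7 were highest in rat 35 (80% and 70%, beside 42.5% and 45.4% of all genes). Both counts include Ccn4, listed under its older symbol Wisp1, at 1.06, 3.675 and 0.54. It would not have reached a mean of 1 FPKM without rat 35, so nothing is read from the size of these shares. Cd44 was at 23.8, 35.3 and 7.44 FPKM and Snai2 at 2.46, 9.04 and 1.33. Id2 was at 27.1, 15.6 and 21.7 and Nkd1, an inhibitor induced by the pathway, at 11.1, 10.4 and 14.1, so that both stayed within 2-fold, as Axin2 did. Several of these genes, such as Cd44, are also expressed by macrophages and fibroblasts, whose marker sums were highest in rat 35; their part in these values was not tested.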

How the data were processed

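Messenger RNA libraries from the motor cortex of 3 rats (1 group) were analysed. The values are FPKM as deposited: the series' design text says that the authors normalized fragment numbers per gene and used a Perl script for the FPKM. Per the submitters' processing notes, which give no roles, HISAT2 2.0.4, StringTie 1.3.0 and the build Rnor 6.0 were used; further steps are not stated there. All coordinates of genes are those of the files, and those of promoter windows are GRCr8.

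Depth and gene lengths were recovered from the steps between FPKM values: the length is the shortest up to 20000 bp that gives whole fragments in every rat within 0.005, so fragment numbers are minima. Such a length existed for 99.8% of 1000 drawn genes and for 1.8% once their values had been randomly altered, and for the single-exon genes Fzd1, Fzd2, Fzd7 and Fzd9 it equalled the listed span. Exact Poisson 95% intervals cover counting error only. Since the rats form 1 group, groups were not tested and no p-value is given. The SD is over 3 rats, taken as separate animals because each has its own number. A gene is called over 2-fold apart when the highest rat exceeds 2 times the lowest on the FPKM + 1 scale, which understates differences of low genes, and the genes counted have a mean of at least 1 FPKM. The recovery and the calls were tested on simulated data.

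The members and lists were chosen with earlier results of these data known. Values by rat are given for members over 2-fold apart, for the 2 most abundant of each role and, in each pathway list, for the 2 most abundant and the 2 with the largest SD of log2(FPKM + 1); other members and markers were added to complete a family or a count after their values were seen. Alternatives changed the pseudocount (0.1), the minimum mean (0.5, 5 or none) and the scaling (to a sum of 1000000, or by the median of ratios), or left out 1 rat at a time. Python 3.11.15, pandas 2.3.3, NumPy 2.4.6, SciPy 1.17.1 and matplotlib 3.10.9 were used.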

Additional observations from a re-analysis of the deposited data

How the results depend on the processing

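The counts of members over 2-fold apart, highest in rat 35 and lowest in rat 35 (25, 17 and 13) were 9, 10 and 4 among the 16 members whose mean was at least 5 FPKM. These are 56.2%, 62.5% and 25%, beside 40.9%, 45.3% and 36.8% of genes at that minimum. There the counts with rat 35 above both others, rat 35 below both others and rat 70 above both others went from 7, 5 and 6 to 4, 2 and 0. These are 25%, 12.5% and 0%, beside 10.2%, 12.3% and 3.65% of genes. With a pseudocount of 0.1 rat 35 was below both others in 8 (22.9%, beside 14.3% of genes). With each rat left out in turn, 7 to 22 members and 6 to 23 pathway genes were over 2-fold apart. These are 20% to 62.9% of members and 10% to 38.3% of pathway genes, beside 11% to 37% of all genes. Without rat 19 or rat 70, when each member is either highest or lowest in rat 35, 19 to 20 were highest and 15 to 16 lowest there. These are 54.3% to 57.1% and 42.9% to 45.7%, near the 52.9% to 56% and 44% to 47.1% of all genes. Under a minimum of 0.5 or none, rescaling to a sum of 1000000 and median-of-ratios scaling, these counts stayed within 1.5 times. Both scalings left the highest and the lowest rat of all 35 members as they were, but Dkk3 and Lef1 passed 2-fold under both, Wnt5a under rescaling, and Lef1 and Wnt5a with a pseudocount of 0.1. The choice of the patterns by rat and the overlap of Poisson intervals were added after seeing the data. No paired analysis was possible because there is 1 group. The smallest levels limit precision: Wnt3 in rat 35 rests on 1 fragment.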
